A study of Mus musculus with 17 samples.

Results

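The locus control region (LCR) of the mouse beta-globin locus was examined as chromosome 7, positions 111004000 to 111030000 of build mm9, an interval of 26 kb that holds the enhancer HS2. The data are pairs of restriction fragments that were read on the same molecule as a chosen fragment, the viewpoint. A count is read as a three-way contact, except that fragments touching on the genome may be uncut DNA, as described below. An LCR pair is a fragment pair with both fragment midpoints inside the interval. Together the HS2 and beta CTCF tables held 3165 such fragment pairs, of 1033519 in these tables and 1997429 in all 4 tables of the series. From HS2 there were 1917 LCR pairs among 116 fragments, with 58272 counts. From beta CTCF there were 1248 among 130 fragments, with 34194 counts. Fragments within 1 kb of the HS2 centre at 111009846 were to be left out of the HS2 table, which removed 0 pairs, because no fragment there lies between 111008334 and 111011358.

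A locus control region is a cluster of DNase-hypersensitive sites that acts over a distance on a group of genes, and the one at the beta-globin locus is needed for high expression of the linked globin genes in red cell precursors. HS2 is the site best known as a classical enhancer. HS1 lies on the gene side of HS2, towards lower coordinates here, and HS3 with further sites lies beyond it. Of these sites, HS2 alone is placed by coordinate below. The beta CTCF viewpoint, a site of the insulator protein CTCF, lies 54.4 kb from HS2 on the gene side, past the adult beta-globin genes, as its distance of -54.4 kb says. Positions inside the interval are given as the centre of a 2 kb bin in kb from HS2, negative on the gene side. The 13 bins run from -4.8 kb (111004000 to 111005999) to 19.2 kb (111028000 to 111029999).

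The method was Tri-C, in which cross-linked chromatin is cut with NlaIII, ligated, and enriched with oligonucleotides so that a viewpoint and several of its partners are recovered together. Erythroid cells were Ter-119+ cells from spleens of female C57BL/6 mice that had received phenylhydrazine, a drug that causes anaemia and fills the spleen with red cell precursors, in 3 doses 12 hours apart, and were killed after 5 days. The mice were not described as genetically modified, and no source used here states their age. The comparison group was E14, an embryonic stem (ES) cell line of strain 129/Ola, in which the locus is inactive according to the series design. Strain differs along with cell type, so that these cannot be told apart, and E14 is a single line. The tables hold contacts and no expression, so both identities were taken from the labels. There were 17 libraries, 10 of erythroid and 7 of ES cells, which were summed over technical replicates to 3 biological replicates of either cell type. Whether these came from separate animals or cultures is not in the labels. If they did not, the p-values below reflect only how much these samples vary, which may be technical.

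The HS2 table held 222562, 260114 and 464338 counts in the erythroid replicates, against 272616, 84849 and 129113 in the ES replicates. For beta CTCF the totals were 658673, 730221 and 1082506 in erythroid replicates, against 785662, 93686 and 125570 in ES cells. LCR pairs made up 7068, 7709 and 26434 of the HS2 counts in erythroid cells and 9858, 5108 and 2095 in ES cells. Many counts fell outside the chromosome altogether. From HS2, 54.9%, 58.0% and 40.2% of erythroid pairs had neither fragment on chromosome 7, against 34.0%, 26.8% and 37.2% in ES cells, so the groups did not overlap. For beta CTCF these shares were 49.5%, 54.4% and 39.8% in erythroid cells and 45.0%, 24.2% and 37.0% in ES cells, which overlapped. Levels per 1000 pairs of the whole table carry this share with them, and the main values below are therefore set beside levels per 1000 pairs on chromosome 7.

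Seen from HS2, the frequency of pairs inside the LCR did not differ between the cell types beyond the spread of the replicates, when all pairs of the table were the base. There were 31.8, 29.6 and 56.9 LCR pairs per 1000 table pairs in erythroid replicates, against 36.2, 60.2 and 16.2 in ES cells. The means were 39.4 ± 15.2 and 37.5 ± 22.02 (SD, n = 3 each; exact two-sided permutation p = 1). The highest and the lowest of the 6 replicates were both ES replicates. Libraries of 1 biological replicate lay close together: those of ES replicate 3 ranged from 15.9 to 16.6 and those of erythroid replicate 3 from 53.5 to 59.3 per 1000. The spread was therefore between biological replicates and not between libraries of 1 replicate.

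Relative to pairs on chromosome 7, erythroid cells had more LCR pairs in every replicate. The levels were 115.0, 123.1 and 133.4 per 1000 chromosome 7 pairs in erythroid replicates, against 70.0, 99.7 and 35.3 in ES cells. The means were 123.8 ± 9.21 and 68.3 ± 32.3 (SD, n = 3 each). The groups did not overlap, and the exact permutation p was 0.1, the smallest that 3 against 3 allows. Without touching fragments the levels were 74.97, 82.6 and 87.3 in erythroid replicates and 41.3, 66.0 and 14.4 in ES replicates, again without overlap. Within the 286 kb window used for the fits below (110848000 to 111133999), which leaves out the rest of the chromosome, the groups overlapped again. There the levels were 294.0, 324.5 and 319.2 per 1000 window pairs in erythroid replicates, against 244.5, 373.5 and 225.7 in ES cells (n = 3 each, exact permutation p = 0.5).

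The beta CTCF viewpoint, which lies outside the LCR, saw fewer pairs inside it. There were 7.67, 5.28 and 17.7 LCR pairs per 1000 table pairs in erythroid replicates, against 5.68, 10.7 and 5.11 in ES cells. The means were 10.2 ± 6.60 and 7.18 ± 3.10 (SD, n = 3 each; exact permutation p = 0.6), and 1 replicate of each group stood above the other replicates of both. Per 1000 pairs on chromosome 7 the levels were 22.5, 18.6 and 39.6 in erythroid cells and 14.02, 17.2 and 11.3 in ES cells. These did not overlap (n = 3 each, exact permutation p = 0.1, the smallest possible). Without fragments that touch on the genome they did, at 10.98, 9.75 and 23.8 in erythroid replicates and 7.63, 11.6 and 5.65 in ES replicates (n = 3 each, exact permutation p = 0.3). Within the window the levels were 82.0, 68.4 and 108.1 in erythroid cells and 52.2, 77.3 and 75.5 in ES cells, which overlapped (n = 3 each, exact permutation p = 0.4).

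**Figure D1:**
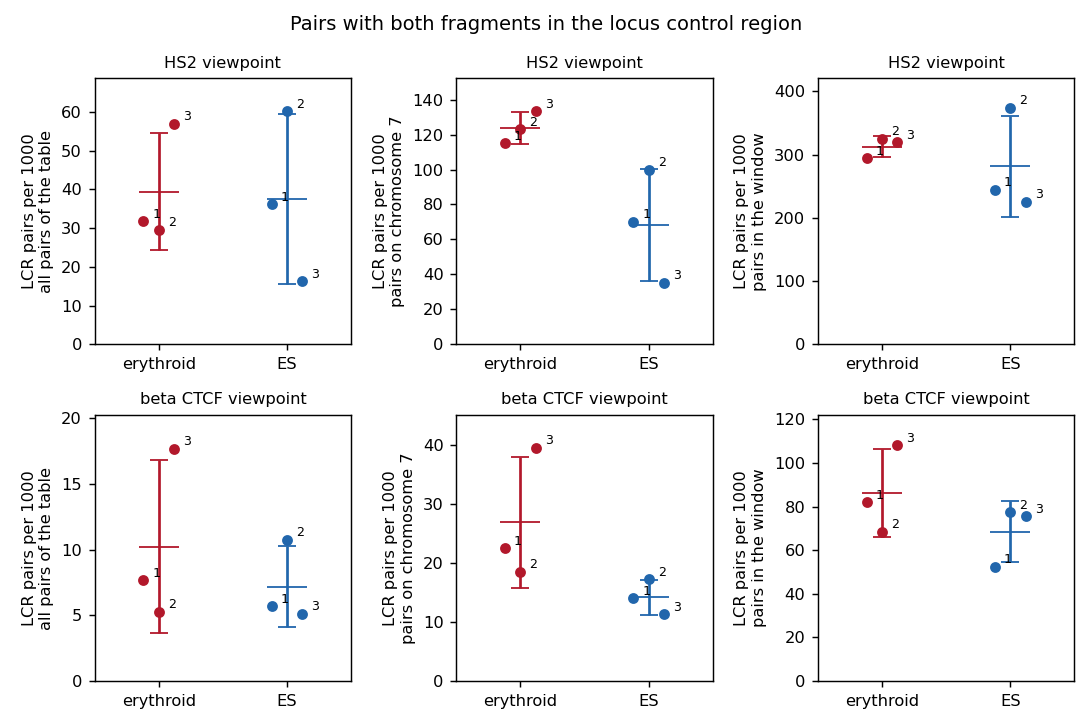
Points show LCR pairs of each biological replicate (numbered 1 to 3) per 1000 pairs of the whole table, on chromosome 7 and in the window, from HS2 (top) and beta CTCF (bottom). Horizontal bars are means and vertical bars 1 SD. The erythroid points lie above all ES points in the chromosome 7 panels only, for example 115.0 to 133.4 against 35.3 to 99.7 from HS2.

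With touching fragments counted, a molecule that joined HS2 to the LCR and to another window fragment usually had that fragment in the LCR too. This share was 67.9%, 71.5% and 75.8% in erythroid replicates, against 63.4%, 86.1% and 67.3% in ES cells (n = 3 each, exact permutation p = 1). From beta CTCF it was 51.6%, 48.7% and 59.8% in erythroid cells and 44.4%, 71.1% and 69.0% in ES cells (n = 3 each, exact permutation p = 0.4). Without touching fragments the share from HS2 was 46.4%, 51.4% and 54.9% in erythroid replicates and 41.2%, 68.9% and 37.0% in ES replicates. From beta CTCF it was then 26.3%, 25.3% and 36.2% in erythroid cells and 24.4%, 50.3% and 44.6% in ES cells. The share depends on no count outside the window. In both tables the ES replicates spread more widely than the erythroid ones.

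Most LCR pairs were very short. Fragments that touch each other on the genome made up 59.3%, 58.1% and 61.5% of LCR pairs from HS2 in erythroid replicates, against 59.7%, 64.3% and 71.7% in ES cells. From beta CTCF they made up 66.5%, 64.4% and 62.1% in erythroid cells and 59.8%, 58.9% and 63.7% in ES cells. In the whole window this share was lower, 44.4% ± 2.73 in erythroid cells and 47.9% ± 6.45 in ES cells from HS2 (SD, n = 3 each). In these data a pair of touching fragments cannot be told apart from a piece of DNA that was never cut between them. Main results are therefore also given without such pairs.

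The median distance between the midpoints of an LCR pair was 188, 178 and 150.5 bp from HS2 in erythroid replicates, against 167, 118 and 150.5 bp in ES cells (n = 3 each, exact permutation p = 0.3). Without touching fragments they were 1411, 1110.5 and 533.5 bp in erythroid replicates and 1001.5, 188 and 1047.5 bp in ES replicates (n = 3 each, exact permutation p = 0.5). The beta CTCF medians were 169, 174 and 162 bp in erythroid cells and 149.5, 143 and 108 bp in ES cells, which did not overlap (n = 3 each, exact permutation p = 0.1, the smallest possible). Without touching fragments the beta CTCF medians were 465.5, 1214 and 348 bp in erythroid cells and 591.5, 533.5 and 199.5 bp in ES cells, and overlapped (n = 3 each, exact permutation p = 0.6). Pairs over 10 kb apart made up 2.67%, 3.74% and 2.42% of LCR pairs from HS2 in erythroid replicates, against 3.91%, 0.998% and 2.10% in ES cells (n = 3 each, exact permutation p = 0.5). Without touching fragments these shares were 6.56%, 8.91% and 6.27% in erythroid replicates and 9.69%, 2.79% and 7.42% in ES replicates (n = 3 each, exact permutation p = 0.9). Pairs over 10 kb apart were a small part of LCR pairs from HS2 in both cell types, larger when touching fragments were left out.

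The same was seen bin by bin. From HS2, 712.1 ± 45.1 of 1000 LCR pairs in erythroid cells lay inside a single 2 kb bin, against 792.1 ± 61.7 in ES cells (SD, n = 3 each). Another 162.0 ± 25.8 in erythroid cells and 111.5 ± 20.8 in ES cells joined adjacent bins. Bins at least 4 apart accounted for 55.1 ± 10.5 in erythroid cells and 44.0 ± 25.4 in ES cells. All of these classes overlapped between the cell types. Without touching fragments the same bin held 439.8 ± 87.0 of 1000 LCR pairs in erythroid replicates and 535.2 ± 164.6 in ES replicates (SD, n = 3 each), which overlapped as well. When every fragment pair was counted a single time in a library, 445.4, 464.3 and 443.3 of 1000 were in the same bin in erythroid replicates, against 510.5, 692.5 and 647.6 in ES cells, and these groups did not overlap. The erythroid replicates held 639, 624 and 1123 distinct LCR pairs from HS2, against 564, 252 and 180 in ES cells. This way of counting may depend on depth, and the part of depth in the difference was not tested.

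**Figure D2:**
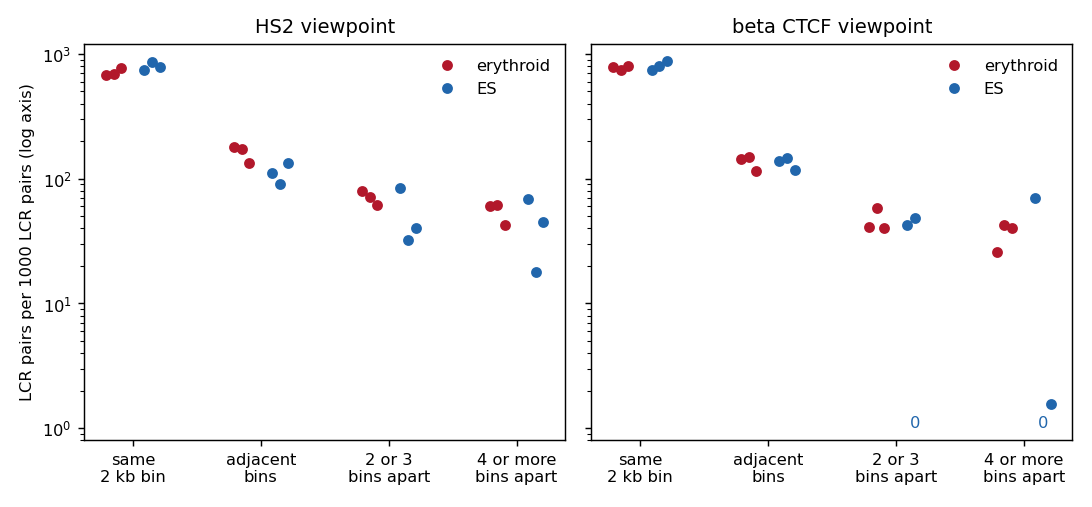
LCR pairs per 1000 LCR pairs (log axis) by the distance between the bins of both fragments, each point a biological replicate. Pairs in the same bin lead in every replicate, with 712.1 per 1000 on average from HS2 in erythroid cells and 792.1 in ES cells. The 0 signs mark ES replicates with no pair in that class.

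Erythroid cells reached more of the possible combinations of bins. Of 91 possible bin pairs in the LCR, 69 had counts in all 3 erythroid replicates and 34 in all 3 ES replicates from HS2. For beta CTCF there were 53 in erythroid cells and 15 in ES cells. Among the 36 combinations at least 5 bins apart, 20 were seen in all erythroid replicates and 3 in all ES replicates from HS2, and 9 and 0 from beta CTCF. In single fragment pairs, 445 of the 1917 from HS2 occurred in both cell types, 1185 in erythroid cells alone and 287 in ES cells alone. The shared 445 held 83.3% of erythroid and 89.9% of ES LCR counts. Nearly every fragment was seen in both cell types: 1 of 116 from HS2, with 3 counts, occurred in erythroid cells alone, and 0 in ES cells alone. The totals above were larger in erythroid cells on average, and the part of depth in these numbers was not tested.

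The most counted fragment pairs show what these molecules are. From HS2 the pair with the highest level in both cell types joined a fragment of 172 bp at 111011742 to 111011913 with its neighbour of 64 bp at 111011914 to 111011977, just beyond the viewpoint. It had 0.687, 0.569 and 1.29 counts per 1000 table pairs in erythroid replicates, against 0.576, 2.35 and 0.627 in ES cells. From beta CTCF the leading pair in erythroid cells joined 111022007 to 111022097 with 111022098 to 111022292, with 0.241, 0.114 and 0.303 per 1000 there and 0.0344, 0.235 and 0.0717 in ES cells. The 10 leading pairs of the HS2 table, ranked over all 6 replicates, were all between touching fragments. They held 16.9%, 14.3% and 17.4% of LCR counts in erythroid cells and 14.8%, 23.3% and 26.8% in ES cells.

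Seen from HS2, the level per bin was highest just beyond the enhancer, on the side away from the genes. These levels include touching fragments and were not divided by the number of fragments in a bin. There were 12 fragments at 3.2 kb, 10 at 5.2 kb and 14 at 7.2 kb, against 6 each at -4.8 and -2.8 kb. The bin at 3.2 kb was in 246.0, 223.8 and 262.8 of 1000 LCR pairs in erythroid replicates, against 240.2, 280.1 and 220.0 in ES cells. From there the level declined with distance in erythroid cells, through 188.9 ± 12.8 at 5.2 kb, 175.5 ± 16.0 at 7.2 kb, 133.5 ± 13.5 at 9.2 kb and 94.5 ± 25.1 at 11.2 kb to 47.2 ± 3.06 at 13.2 kb (SD, n = 3). In ES cells the same 5 bins had 171.1 ± 41.5, 135.5 ± 34.4, 67.2 ± 26.4, 46.4 ± 14.8 and 23.5 ± 16.8 (SD, n = 3). Further out, the bin at 17.2 kb had 52.9 ± 11.2 in erythroid cells and 96.6 ± 31.4 in ES cells. That bin holds 18 fragments, the most of any bin. At 15.2 kb the level was 27.2 ± 2.85 in erythroid cells and 42.2 ± 12.9 in ES cells, and at 19.2 kb 9.87 ± 1.29 and 19.5 ± 8.61.

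On the gene side the bin at -2.8 kb had 101.3 ± 20.8 in erythroid cells and 89.9 ± 24.5 in ES cells, and the bin at -4.8 kb 42.0 ± 7.25 and 93.7 ± 19.1 (SD, n = 3 each). The bins next to the viewpoint were partly emptied by its gap. The bin at -0.8 kb, with 2 fragments, had 54.3 ± 4.74 in erythroid cells and 57.8 ± 38.0 in ES cells, and that at 1.2 kb, with 4 fragments, 116.6 ± 18.7 and 117.6 ± 24.1.

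As a share of LCR pairs 5 of 13 bins did not overlap between the cell types: those at 9.2, 11.2 and 13.2 kb were higher in every erythroid replicate, and those at -4.8 and 17.2 kb lower. On this base 11.9% of all 118 bins tested in the window were higher in erythroid cells without overlap, and 10.2% were lower. On the table base 2 of the 13 LCR bins did not overlap. At 9.2 kb (111018000 to 111019999) there were 4.21, 4.37 and 6.87 LCR pairs per 1000 table pairs in erythroid replicates, against 3.51, 2.84 and 0.930 in ES cells. At 11.2 kb (111020000 to 111021999) there were 2.83, 3.61 and 4.13 in erythroid replicates, against 2.29, 2.13 and 0.658 in ES cells. In both bins every erythroid replicate lay above every ES replicate. At -4.8 kb (111004000 to 111005999) the levels were 1.60, 1.14 and 2.12 in erythroid cells and 3.36, 4.51 and 1.84 in ES cells, which overlapped. As a share of LCR pairs, that bin had 50.4, 38.4 and 37.3 per 1000 in erythroid cells and 92.9, 75.0 and 113.1 in ES cells, with no overlap.

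**Figure D3:**
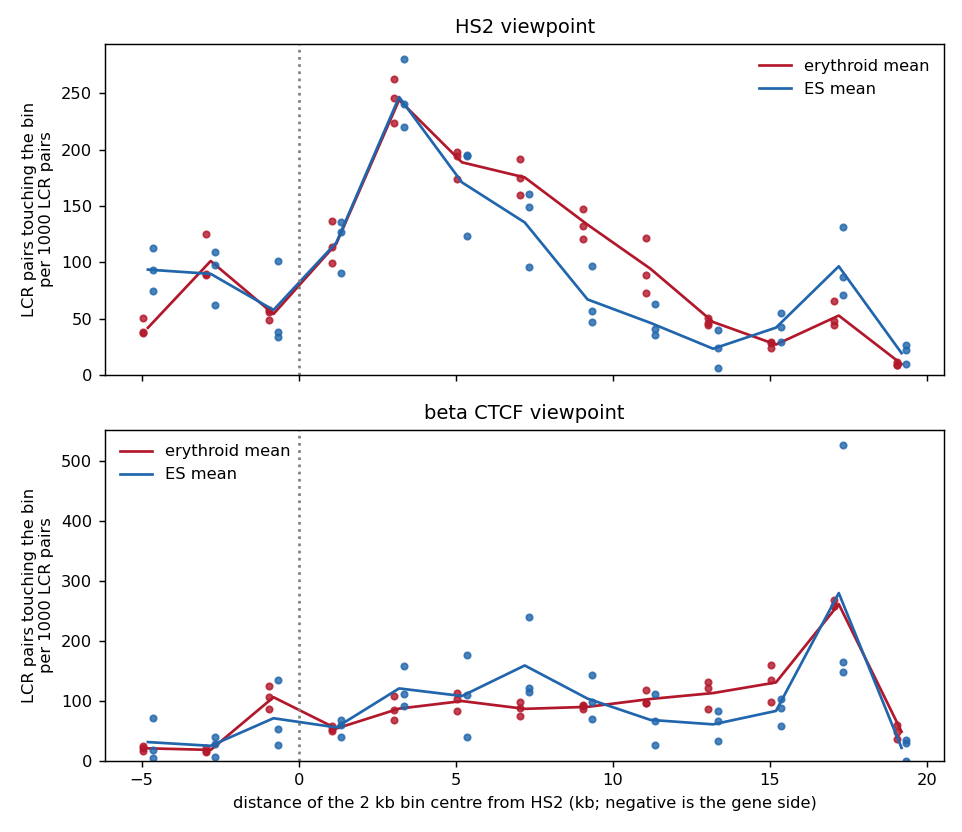
LCR pairs that touch each 2 kb bin, per 1000 LCR pairs, by distance from HS2 in kb (dotted line), for erythroid (red) and ES (blue) replicates as points, with group means as lines. From HS2 both lines peak at 3.2 kb and separate at 9.2 and 11.2 kb, where the erythroid means are 133.5 and 94.5 and the ES means 67.2 and 46.4. From beta CTCF both peak at 17.2 kb, where ES replicate 3 stands at 526.5. Levels are not divided by the number of fragments in a bin.

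These differences did not pass the test fitted to the whole window. In edgeR's quasi-likelihood test on pairs that join the LCR with each 2 kb bin, with table totals as library sizes, 0 of the 13 LCR bins were called at an adjusted p under 0.05, and 0 at an unadjusted p under 0.05. The background was 0 of 118 bins, 0%. The log2 changes, erythroid over ES, were 1.084 (SE 0.67) at 9.2 kb, 1.06 (SE 0.65) at 11.2 kb and -0.997 (SE 0.64) at -4.8 kb, each with adjusted p = 0.75. The median over the 13 bins was 0.32, against -0.12 over all 118 bins. Both bins whose groups did not overlap were higher in erythroid cells, 2 of 13, where 11.9% of all bins were higher and 6.78% lower without overlap.

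The call depended on the base. With chromosome 7 totals as library sizes, the bins at 9.2 and 11.2 kb rose in erythroid cells, with log2 changes of 1.87 (SE 0.51) and 1.89 (SE 0.51), both with edgeR adjusted p = 0.041, while 5.93% of all bins were called. This base moved the median of all 118 bins to 0.63 and that of the LCR bins to 1.05. Then 7 of 13 LCR bins were higher in erythroid cells without overlap, against 24.6% of all bins. With window totals the same pair of bins rose by 1.20 (SE 0.29; edgeR adjusted p = 0.030) and 1.23 (SE 0.32; edgeR adjusted p = 0.037), beside 4.24% of all bins. DESeq2, with its own size factors, called both as well, at 1.22 (adjusted p = 0.015) and 1.23 (adjusted p = 0.026), beside 7.63% of all bins. With TMM factors neither was called, at 1.13 and 1.15 (edgeR adjusted p = 0.074 for both), beside 2.54% of all bins. Relative to LCR pairs alone, the bin at 9.2 kb rose by 0.99 (SE 0.31) and the bin at -4.8 kb fell by 1.16 (SE 0.36), each with edgeR adjusted p = 0.048, beside 4.24% of all bins, and at 11.2 kb the change was 1.02 (SE 0.36, edgeR adjusted p = 0.082). Without touching fragments on the chromosome 7 base the changes were 2.03 (SE 0.63) and 1.93 (SE 0.60), and neither was called (edgeR adjusted p = 0.090 for both, beside 4.24% of all bins). With each fragment pair counted once and the chromosome 7 base, 9 of 13 LCR bins rose, beside 35.1% of the bins tested.

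From beta CTCF the profile was different in shape. The bin at 17.2 kb (111026000 to 111027999), the far side of the LCR as seen from that viewpoint, led with 268.3, 257.5 and 258.6 of 1000 LCR pairs in erythroid replicates, against 165.4, 148.0 and 526.5 in ES cells. The erythroid replicates lay close together, and ES replicate 3 stood far above the other ES replicates. These levels too include touching fragments and were not divided by the number of fragments in a bin. There were 18 fragments at 17.2 kb, against 7 each at 13.2 and 15.2 kb. The bin at 15.2 kb had 130.8 ± 31.1 in erythroid cells and 83.2 ± 23.3 in ES cells, and the bin at 13.2 kb 113.0 ± 23.5 and 60.8 ± 25.7. Between 3.2 and 11.2 kb the erythroid means lay between 86.7 and 103.2 and the ES means between 68.3 and 159.1. The bin at -0.8 kb, which contains the HS2 centre, had 106.1 ± 18.8 in erythroid cells and 71.0 ± 56.4 in ES cells, while 1.2 kb had 53.8 ± 3.57 and 55.7 ± 13.8. The lowest levels were on the gene side, with 18.2 ± 3.57 at -2.8 kb and 20.8 ± 3.88 at -4.8 kb in erythroid replicates, against 25.0 ± 17.5 and 31.2 ± 35.2 in ES cells. At 19.2 kb the levels were 48.4 ± 11.3 in erythroid cells and 21.4 ± 18.8 in ES cells, where ES replicate 3 had 0.

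No LCR bin was called between the cell types from beta CTCF. In edgeR's test 0 of 13 were called, and 0 had an unadjusted p under 0.05, where 0 of 126 bins of the window, 0%, were called and 6 had such a p. DESeq2 called 0 of 13 and 0 of 126 as well. The log2 change at 17.2 kb was 0.62 (SE 0.83, edgeR adjusted p = 0.88) and at 13.2 kb 1.23 (SE 0.92, edgeR adjusted p = 0.85). The median was 0.47 over the LCR bins and 0.98 over all 126. In no LCR bin were the groups apart on the table base, whereas 17.5% of all bins were higher in erythroid cells without overlap. On the chromosome 7 base 5 of 13 LCR bins were higher without overlap, beside 31% of all bins, and 0 were called (adjusted p = 0.45 or more).

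Bin pairs add which places met on the same molecule. From HS2 the same 3 led in both cell types, each of a bin with itself. The pair at 3.2 kb had 4.39, 4.15 and 10.6 counts per 1000 table pairs in erythroid replicates, against 6.10, 14.3 and 2.76 in ES cells. That at 7.2 kb had 3.02, 3.68 and 6.97 in erythroid cells and 3.84, 7.59 and 0.782 in ES cells. That at 5.2 kb had 3.42, 3.20 and 6.22 in erythroid cells and 5.03, 5.95 and 2.53 in ES cells. All 3 overlapped, with log2 changes of -0.28, 0.16 and -0.07.

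From beta CTCF the bin at 17.2 kb with itself had the highest mean in both cell types, with 1.61, 1.02 and 3.65 per 1000 table pairs in erythroid replicates, against 0.580, 1.16 and 2.52 in ES cells. In ES cells that lead was not shared by ES replicate 2, where 7.2 kb with itself was higher. The bin at 17.2 kb has 18 fragments, the most of any bin, and these levels were not divided by fragment number. The next in erythroid cells were the HS2 bin at -0.8 kb with itself, at 0.399, 0.363 and 1.63 against 0.573, 0.224 and 0.247 in ES cells, and 5.2 kb with itself, at 0.504, 0.318 and 1.46 against 0.423, 0.961 and 0.199. In ES cells the next were 7.2 kb with itself, at 0.619, 0.247 and 1.08 in erythroid cells and 0.405, 2.20 and 0.470 in ES cells, and 3.2 kb with itself, at 0.313, 0.338 and 1.32 and at 0.452, 0.865 and 0.334. Erythroid replicate 3 was the highest erythroid replicate in each of these, as it was for all LCR pairs.

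**Figure D4:**
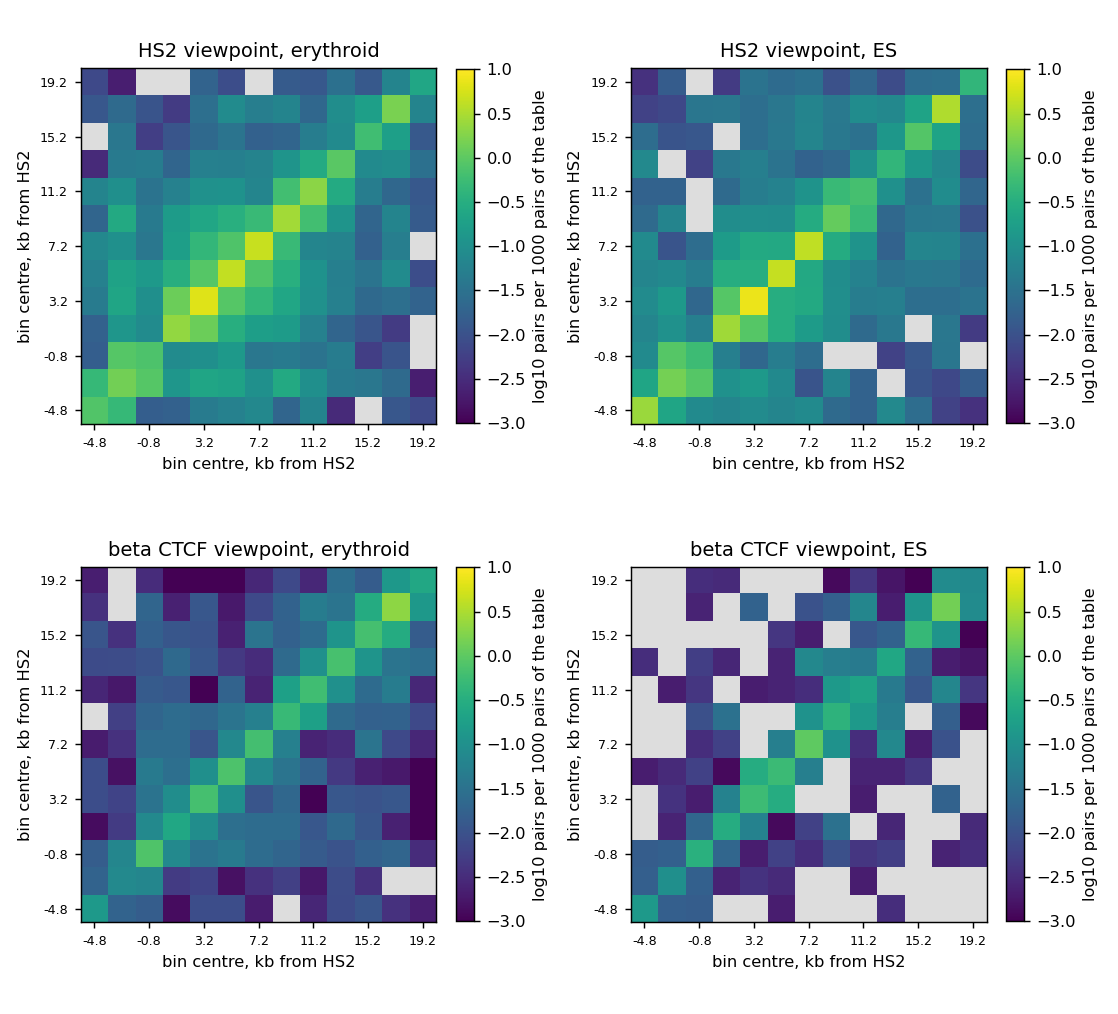
Mean LCR pairs of each pair of 2 kb bins, as log10 of pairs per 1000 table pairs (colour), with both axes in kb from HS2, for erythroid cells (left) and ES cells (right), from HS2 (top) and beta CTCF (bottom). Grey cells have no count in any replicate of the group. The diagonal leads in all panels, and the lower right panel has the most grey cells.

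Of the 91 bin pairs, 77 from HS2 had at least 30 counts over all replicates and could be tested, and 58 from beta CTCF. In edgeR's test 0 of the 77 were called, beside 0 of 637 in the window, 0%, and 3 had an unadjusted p under 0.05. From HS2, 12 of the 77 were higher in erythroid cells without overlap, beside 13.7% of all bin pairs, and 3 were lower, beside 4.08%. The median log2 change was 0.48 over the LCR and 0.14 over all 637. From beta CTCF 0 of 58 were called, beside 0 of 1684, 0%, and 3 had an unadjusted p under 0.05. There 18 of 58 were higher in erythroid cells without overlap, beside 13.3% of all, and 0 lower, beside 1.07%. Without touching fragments 15 of 56 were higher, beside 12.9%, and without erythroid replicate 3 it was 11 of 41, beside 15.3%. With each fragment pair counted once it was 0 of 24, beside 5.83%. DESeq2 called 0 of 58, beside 0.119% of all.

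Other settings called a few bin pairs from HS2. On the chromosome 7 base 3 of 77 rose, beside 4.08% called in the window: 9.2 kb with itself by 2.02, 11.2 kb with itself by 2.45, and 5.2 with 7.2 kb by 2.44 (edgeR adjusted p = 0.011, 0.0040 and 0.046). Without touching fragments on this base 0 of 75 were called in edgeR's test, with a lowest adjusted p of 0.088 and 9 at an unadjusted p under 0.05, beside 2.99% of 569 called. With TMM factors the first 2 of these rose, by 1.62 and 2.05 (edgeR adjusted p = 0.017 and 0.0063), beside 3.92% of all. DESeq2 called 5, beside 6.59% of all: the same 3, 3.2 with 5.2 kb, which rose by 1.82 (adjusted p = 0.018), and -4.8 kb with itself, which fell by 1.36 (adjusted p = 0.018). By chromosome 7 totals, TMM and DESeq2 the shares called in the LCR lie near those of the window or below them. The pair of 11.2 kb with itself had 1.43, 2.12 and 2.46 counts per 1000 table pairs in erythroid replicates, against 0.752, 0.919 and 0.294 in ES cells. The pair of 5.2 with 7.2 kb had 0.602, 0.942 and 0.864 in erythroid cells and 0.253, 0.271 and 0.256 in ES cells. In both, every erythroid replicate lay above every ES replicate. With each fragment pair counted once on the chromosome 7 base, 12 of 37 rose, beside 20.2% of all tested. The 5 of largest change were -2.8 with 7.2 kb (3.25), -2.8 with 9.2 kb (2.39), 5.2 with 9.2 kb (2.19), 5.2 with 7.2 kb (1.98) and 11.2 with 13.2 kb (1.75), of which the first 2 join bins across HS2.

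Where the frequency of each bin and the effect of distance were taken out, no LCR bin pair was called between the cell types. In each replicate, a bin pair's expected count combined the levels of its bins with the mean decline over their distance. Between the cell types, 0 of 77 LCR bin pairs from HS2 were called against this expectation, beside 0.471% of 637, and 9 had an unadjusted p under 0.05. From beta CTCF 0 of 58 were called, beside 0.356% of 1684, and 6 had such a p. The lowest adjusted p from HS2 was 0.059, for 9.2 with 11.2 kb, whose log2 change was -1.27. DESeq2 called that pair (-1.26, adjusted p = 0.014) together with 3.2 with 5.2 kb (1.06, adjusted p = 0.041) and 11.2 kb with itself (0.52, adjusted p = 0.043), beside 2.35% of all, and from beta CTCF 0, beside 0.594%. With each fragment pair counted once, 1 LCR bin pair was called, 5.2 kb with itself (-0.56, edgeR adjusted p = 0.049), beside 2.45% of all.

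Within each cell type some LCR bin pairs were off their expected count. In erythroid cells from HS2 these were 4 of 77, beside 7.54% of the window, and in ES cells 4 of 77, beside 6.12%. With each fragment pair counted once there were 11 above and 6 below of 37 in erythroid cells, beside 57.1% of the window, and 0 above and 2 below in ES cells, beside 9.2%. The pair of -2.8 with -0.8 kb, on the gene side of HS2, exceeded the expectation in both, by 1.46 on the log2 scale in erythroid cells and 2.03 in ES cells. Its levels were 0.723, 0.669 and 1.26 counts per 1000 table pairs in erythroid cells and 0.334, 1.41 and 0.914 in ES cells. Without touching fragments the excess was 0.65 in erythroid cells and 1.31 in ES cells, and neither was called (edgeR adjusted p = 0.58 and 0.086). In erythroid cells 17.2 kb with itself (0.41) and 7.2 kb with itself (0.24) also exceeded it, and both did so without touching fragments (1.32 and 0.72), while -2.8 kb with itself was below it (-0.56), though not without them. The window then had 8.79% called in erythroid cells and 6.68% in ES cells. In ES cells 9.2 with 11.2 kb exceeded it (1.42), and 3.2 with 5.2 kb (-1.52) and 5.2 with 7.2 kb (-1.05) were below it. None of these 3 was called without touching fragments.

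From beta CTCF the LCR bin pairs off expectation were all above it. In erythroid cells they were 2 of 58, beside 3.92% of the window, at 7.2 kb with itself (0.61) and 5.2 kb with itself (0.58). In ES cells they were 6 of 58, beside 5.4%. 5 of the 6 joined a bin with itself, at -0.8 kb (0.64), 3.2 kb (0.61), 5.2 kb (0.64), 15.2 kb (0.59) and 17.2 kb (0.27), and the sixth was 9.2 with 11.2 kb (1.55). Without touching fragments 7.2 kb with itself was above expectation in both cell types (1.501 in erythroid cells and 1.11 in ES cells), beside 3.58% called in the window in erythroid cells and 5.52% in ES cells.

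HS2 divides the LCR, and pairs could lie on either side of it or across it. Pairs across HS2 made up 6.07%, 6.33% and 3.52% of LCR pairs from HS2 in erythroid replicates, against 4.79%, 1.78% and 3.39% in ES cells (n = 3 each, exact permutation p = 0.2). Pairs with both fragments on the gene side made up 13.02%, 8.35% and 11.4% in erythroid cells and 14.6%, 13.4% and 22.5% in ES cells. The means were 10.9% ± 2.37 and 16.9% ± 4.95 (SD, n = 3 each), the groups did not overlap, and the exact permutation p was 0.1, the smallest possible. Without touching fragments the gene-side shares were 5.07%, 3.84% and 4.27% in erythroid cells and 6.82%, 7.29% and 11.6% in ES cells, again without overlap (n = 3 each, exact permutation p = 0.1). The remaining pairs, 80.9%, 85.3% and 85.0% in erythroid cells and 80.6%, 84.8% and 74.1% in ES cells, lay beyond HS2.

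Blocks of 26 kb set the LCR pairs beside pairs that leave it. From HS2, the LCR with itself changed by 0.07 on the log2 scale (SE 0.57, edgeR adjusted p = 0.93), while 7.81% of 64 block pairs were called. The LCR with the second block on its gene side, which holds the beta CTCF viewpoint, rose by 2.20 (SE 0.67, edgeR adjusted p = 0.028). Its levels were 6.87, 5.09 and 6.59 per 1000 table pairs in erythroid replicates, against 2.34, 1.20 and 0.488 in ES cells, with no overlap. The second block spans 26 kb and holds more than the beta CTCF viewpoint. The adult beta-globin genes were not placed by coordinate, and which part of the block carried the rise was not tested. The call was lost without erythroid replicate 1 (2.12, adjusted p = 0.17), erythroid replicate 2 (2.32, adjusted p = 0.11), ES replicate 2 (2.12, adjusted p = 0.075) or ES replicate 3 (1.80, adjusted p = 0.071), and without touching fragments (2.08, adjusted p = 0.051), all by edgeR. On chromosome 7 totals it held with and without those fragments, at 3.01 and 3.07 (edgeR adjusted p = 4.9e-07 and 1.3e-06). The second block with itself rose on table totals as well, by 1.93 (SE 0.61, edgeR adjusted p = 0.028). Its levels were 24.1 ± 5.09 in erythroid cells and 6.34 ± 2.02 in ES cells (SD, n = 3 each). That call was also lost without erythroid replicate 1 or 2, or without ES replicate 2 or 3. With the adjacent block on the gene side the LCR had 3.85, 2.61 and 4.96 in erythroid cells and 6.45, 3.36 and 2.63 in ES cells, which gave a change of -0.12. With the next block beyond it had 1.72, 1.36 and 2.28 in erythroid cells and 4.67, 2.50 and 2.20 in ES cells, which gave a change of -0.81, and with the one after that the change was -0.10. None of these 3 was called.

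From beta CTCF, 0 of 66 block pairs, 0%, were called. The LCR with itself changed by 0.51 (SE 0.62, edgeR adjusted p = 0.92), with the second and the adjacent block on the gene side by 0.66 and 0.37, and with the next block beyond by 0.84. With the block 2 beyond, its levels were 0.474, 0.362 and 1.00 per 1000 table pairs in erythroid cells and 0.241, 0.246 and 0.0956 in ES cells, which did not overlap (1.65, SE 0.72, edgeR adjusted p = 0.44). With each fragment pair counted once on the chromosome 7 base, the LCR with itself rose from HS2 by 0.96 (edgeR adjusted p = 0.020), beside 12.7% of block pairs. With all counts on that base the change was 0.86 (SE 0.37, edgeR adjusted p = 0.16). Without touching fragments it was 1.01 (edgeR adjusted p = 0.14), and from beta CTCF with all counts 0.92 (edgeR adjusted p = 0.27). None of the latter was called.

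Pairs inside the LCR were distributed differently from the viewpoints, in a comparison added after the profiles were seen. It set beta CTCF over HS2 within each replicate, with LCR pairs as the base, so that only the distribution inside the LCR counted. A higher share in some bins therefore goes with a lower share in others. HS2 lies inside the LCR and beta CTCF outside it, and the part of distance from the viewpoint was not tested. In edgeR's test with the replicate as a block, 8 of 13 LCR bins were called, beside 15.9% of 132 bins. Far from HS2, the bins at 13.2, 15.2 and 17.2 kb had more of the LCR pairs from beta CTCF, with log2 changes of 1.41 (SE 0.40), 1.63 (SE 0.39) and 1.85 (SE 0.27; edgeR adjusted p = 4.65e-09), each higher in 6 of 6 replicates. At 17.2 kb there were 270.7 ± 135.6 per 1000 LCR pairs from beta CTCF and 74.7 ± 31.9 from HS2 (SD, n = 6). Nearer HS2, 5 bins had less from beta CTCF: the change was -1.57 at -4.8 kb, -2.31 at -2.8 kb, -1.09 at 1.2 kb, -1.29 at 3.2 kb and -0.90 at 5.2 kb. The bin that contains HS2, at -0.8 kb, went the other way without a call (0.59, SE 0.39, edgeR adjusted p = 0.36), higher from beta CTCF in 4 of 6 replicates. It was called higher in erythroid replicates alone (0.96, edgeR adjusted p = 0.0047) and with each fragment pair counted once (1.499, edgeR adjusted p = 9.3e-08, beside 31.3% of 99 bins). At -2.8 kb there were 21.6 ± 11.9 per 1000 LCR pairs from beta CTCF and 95.6 ± 21.3 from HS2 (SD, n = 6), with beta CTCF lower in 6 of 6 replicates. The bins at -0.8 and 1.2 kb have 14 and 7 fragments in the beta CTCF table and 2 and 4 in the HS2 table, so their levels are not on the same footing. The same libraries were used for both viewpoints, so HS2 was itself a viewpoint in them, and the part of this was not tested.

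Calls were made in the erythroid replicates alone and not in the ES replicates alone. The erythroid replicates gave 5 rises and 7 falls among the 13 LCR bins, with 2.32 at 17.2 kb and -2.47 at -2.8 kb, beside 35.4% of 127 bins. The ES replicates alone gave 0 calls among 114 bins, 0%, with 1.32 at 17.2 kb and -2.14 at -2.8 kb (edgeR adjusted p = 0.35 and 0.084). The difference between the cell types in this contrast was not tested. Without touching fragments 3 LCR bins were called over the 6 replicates, beside 7.58% of 132: -2.08 at -2.8 kb, -1.33 at 3.2 kb and 1.87 at 17.2 kb.

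**Figure D5:**
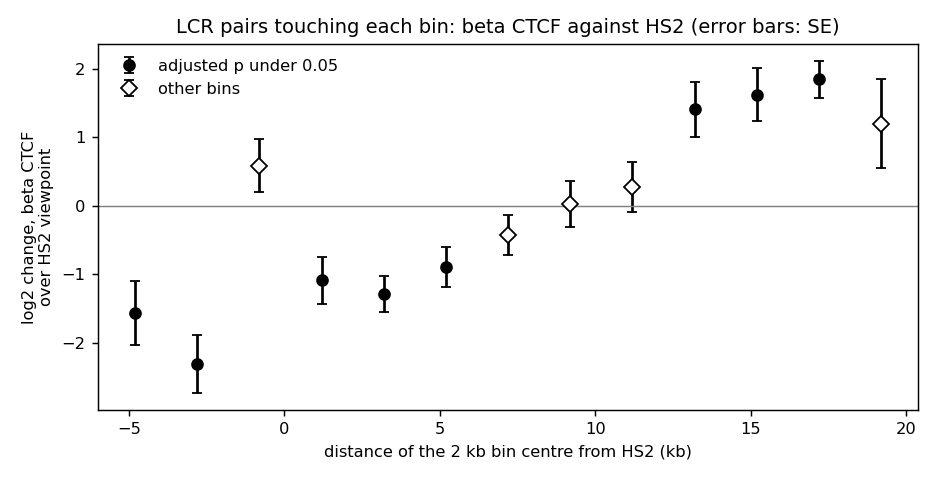
Log2 change of LCR pairs touching each 2 kb bin, beta CTCF over HS2, with LCR pairs as the base and bars of 1 SE, by distance from HS2 in kb. Filled points have an adjusted p under 0.05: the points from 13.2 to 17.2 kb lie above 0 (1.41 to 1.85), and 5 nearer HS2 lie below it (-0.90 to -2.31).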

How the data were processed

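Tri-C libraries with viewpoints HS2 and beta CTCF were used. Per the files, the authors deposited whole-number counts of NlaIII fragment pairs in each of 17 libraries. The submitters' processing notes list Trim Galore, Bowtie and mm9, with no version or role. No source used here says how duplicates were handled. Counts without molecular identifiers cover counting error only.

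Technical replicates were summed to 3 biological replicates per cell type. A window of 143 bins of 2 kb and 11 blocks of 26 kb was aligned on the LCR. Pairs inside 1 bin were counted once for that bin. Features with at least 30 counts were fitted across the whole window in edgeR 4.0.16 (R 4.3.3; quasi-likelihood, table totals as library sizes, no normalization factors), with Benjamini-Hochberg adjusted p under 0.05 as call. A standard error is the log2 change over the root of the test's F. DESeq2 1.42.0 was an alternative. Expected counts came from 200 rounds of iterative scaling. Single values had exact two-sided permutation tests. The edgeR tests between the cell types, without the replicate block, were also run on simulated counts with known changes. The simulation covered no other test. Python 3.11.15, pandas 2.3.3 and scipy 1.17.1 did the rest.

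All 13 bins are described. Bin pairs named are the 3 highest per cell type and up to 5 calls per direction whose groups do not overlap, with the LCR block pairs nearby. The leading fragment pairs and the viewpoint comparison were added after values were seen. The interval, bins and tests were chosen with earlier results of these data known. No mm9 genome was used, so no sequence is given.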

Additional observations from a re-analysis of the deposited data

How the results depend on the processing

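Replicate numbers do not pair the samples: deviations of equal numbers correlated by -0.06 to 0.06. In the fit with the replicate block, 1 LCR bin pair from HS2 was called against expectation (-4.8 with -2.8 kb, 0.471% of the window called), while the rise of the LCR with the second block on its gene side was not called (2.44, edgeR adjusted p = 0.21), nor was any of the 64 HS2 block pairs. Among all beta CTCF bin pairs against expectation the falls went to 0 with the block, against 4 without it. The bins at 9.2 and 11.2 kb changed by 1.21 each. The counts of called LCR bins from HS2, 0 on table totals, were 2 by DESeq2, 2 on LCR, chromosome 7 and window totals each, and 9 with pairs counted once on chromosome 7 totals. Those of bin pairs were 5 by DESeq2, 2 with TMM, 3 on chromosome 7 totals and 12 counted once. Against expectation they were 3 by DESeq2, 1 counted once, and 0 to 2 with single replicates left out (1 without ES replicate 1 and 2 without ES replicate 3). The LCR block rose from HS2 by 0.96 when counted once on chromosome 7 totals, and was not called on those totals with all counts (0.86, edgeR adjusted p = 0.16). Directions turned in differences that had no call on table totals: LCR pairs per 1000 from HS2 (1.91 in all, -8.74 to 13.2 with single replicates left out, below 0 without erythroid or ES replicate 3, at -6.83 and -8.74), the same from beta CTCF (-0.25 counted once, and -0.70 to 5.51, below 0 without erythroid replicate 3), the share of partners in the LCR from HS2 (1.89 without touching fragments, and -4.96 to 6.42, above 0 without erythroid replicate 1 at 1.38 and ES replicate 2), pairs over 10 kb from HS2 (-0.256 with 2 kb left out, -0.060 to 1.39) and under 4 kb (-4.72 to 0.085), both turned without ES replicate 2, the LCR block from HS2 (-0.29 to 0.59) and from beta CTCF (-0.044 by DESeq2, -0.068 counted once, -0.15 to 0.92), and the bin at -4.8 kb (0.41 counted once on chromosome 7 totals). The viewpoint comparison, 8 calls, gave 0 in ES replicates alone, 3 without touching fragments and 5 to 8 with single replicates left out, 5 without erythroid replicate 1. Calls within a cell type with single replicates left out were 1 to 5 (erythroid) and 3 to 6 (ES) from HS2, both lowest without erythroid replicate 2, and 1 to 3 and 2 to 6 from beta CTCF, lowest for ES without erythroid replicate 3. The causes were not tested. ES replicates 2 and 3 are the shallowest, and limit what can be said of ES cells.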
